A study of Sus scrofa with 4 samples.

Results

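The genes described here encode the channels, pumps, sensors and kinases of calcium signalling, the phosphatase calcineurin with its partners, and the serine/threonine protein phosphatases PP1, PP2A, PP4 and PP6. Members were chosen by the spelling of their gene symbol, although earlier results of these data were known at that time. Of the 4381 listed symbols, 64 (1.46%) matched. By role there were 4 genes of calcium release, 12 of calcium entry, 3 pumps, 12 sensors, 6 kinases, 4 of calcineurin and NFAT, 11 of PP1, 7 of PP2A and 3 of PP4 to PP6. PRKCSH and NFATC2IP, the other 2, matched by spelling and belong to none of these families.

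The study asked how SIRT6, a deacetylase of the sirtuin family, acts in the meiotic maturation of porcine oocytes. Oocytes in cumulus complexes were matured in vitro to M II, the stage at which the egg awaits fertilization, either without inhibitor (control, 2 libraries) or with the SIRT6 inhibitor SIRT6-IN-1 at 100 μM, which enters cells (SIRT6-inhibited, 2 libraries). RNA came from pooled oocytes of each group. The sample labels name Smart-seq2 amplification of full-length cDNA, whereas the study's methods describe column extraction before a randomly primed library. No source says that the libraries of a group came from separate cultures, so p-values measure only the spread between these samples, which may be technical. Because oocytes were pooled, a lower level in every oocyte and loss from some of them cannot be told apart.

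Library totals over the listed genes were 4646129 and 3405960 counts in control 1 and 2, and 3239200 and 4972602 counts in SIRT6-inhibited 1 and 2. The members took 1.70%, 1.72%, 1.76% and 1.73% of these totals, in the same order of libraries, and 44, 51, 47 and 46 of them had at least 1 count. Levels are given as normalized CPM, counts per 1000000 of a library's TMM-scaled total, always in the order control 1, control 2, SIRT6-inhibited 1, SIRT6-inhibited 2. The detection floor, set at 3 counts per library, was 0.648, 0.845, 0.932 and 0.625 normalized CPM. Floors and intervals of shares cover counting error only, since amplified reads are not independent molecules.

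At fertilization the sperm phospholipase PLCZ1 makes the egg release calcium from its endoplasmic reticulum in repeated waves, entry across the plasma membrane refills the store, and pumps return calcium to it. Calmodulin passes the signal to CaMKII and to calcineurin, and the M II arrest ends. PP1 and PP2A remove the phosphates that the meiotic kinases add, and regulatory subunits set where and when they act.

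Of the 64 members, 9 had 0 counts in every library, 7 were detected but too sparse to test, and 48 were among the 2387 genes tested with edgeR's quasi-likelihood test. A gene can pass that filter through a single group, so the counts that follow describe the tested members and not the whole family. At an unadjusted p under 0.05, TRPV4 and NFATC2 were higher and CALM3 and CASR were lower in SIRT6-inhibited oocytes. These 4 genes are 8.33% of the tested members, beside 9.05% (216 genes) of all genes tested. Over all genes, 5.99% were lower and 3.06% higher by that rule. In edgeR's test 0 members and 0 of all genes (0.0%) had an adjusted p under 0.05, and the lowest adjusted p was 0.460, shared by TRPV4 and NFATC2. DESeq2's Wald test gave 6 members (12.5%) an unadjusted p under 0.05, beside 237 of all genes (9.93%). It gave 2 of the 48 members, TRPV4 and CASR, an adjusted p under 0.05, beside 37 of the 2387 genes. CASR passed the filter on low counts through the control group alone, so its place in the counts of both tests is description only. Without control 2, edgeR gave 2 members (4.17%) and 111 genes (4.4%) an unadjusted p under 0.05. The number of genes with an adjusted p under 0.05 was 1 without control 2, 77 without SIRT6-inhibited 1 and 25 without SIRT6-inhibited 2.

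Control and SIRT6-inhibited libraries were fully separate for 17 tested members (35.4%), beside 40.1% of all genes. Of these, 12 were higher in both SIRT6-inhibited libraries (25% of members, 17.9% of all genes) and 5 were lower in both (10.4% of members, 22.2% of all genes). ATP2A1 among the higher and CASR among the lower members passed the filter on low counts through a single group. Their separation followed from that filter, and their places in these shares are description only. Fitted log2 fold changes were above 0 for 34 of 48 members (70.8%) and for 1126 of 2387 genes (47.2%). With library totals as the only scaling these shares were 64.6% and 41.8%, and without control 1 they were 54.0% and 47.5%. The median log2 fold change of tested members was 0.12, beside -0.04 for all genes. With CASR at its bound in place of the fitted value it is 0.12 too, as it must be, since both lie below the median. The median was 0.05 without control 1 and 0.26 without control 2. No test was made of the list as a whole.

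**Figure D1:**
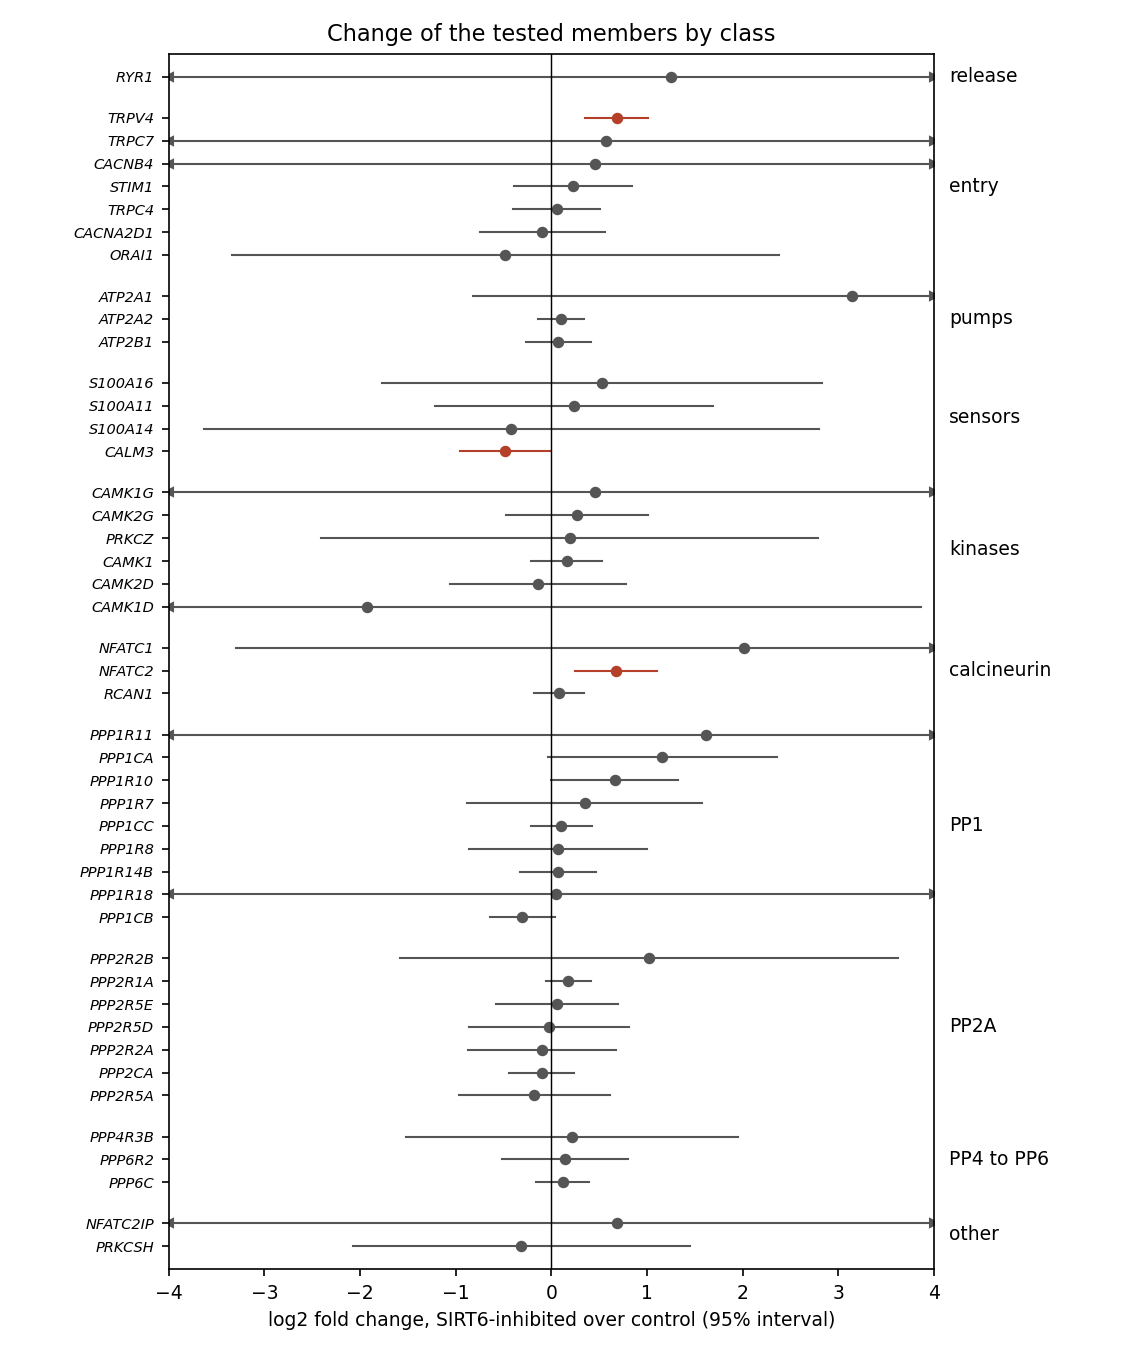
Log2 fold change (SIRT6-inhibited over control, x axis) of 45 tested members, grouped by class on the y axis. CASR, at 0 in a whole group, is among the tested members that are not drawn. Points are edgeR estimates, lines 95% intervals, arrows mark intervals that run past the axis, and red marks an unadjusted p under 0.05. The intervals of TRPV4, NFATC2 and CALM3 lie on one side of 0.

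Precision followed abundance. The 22 tested members with a mean of at least 100 normalized CPM, a split chosen after the values were seen, had a median standard error of 0.16 on the log2 scale, against 1.14 for the 26 members below it. In the abundant group 20 members (90.9%) differed by less than 1.5-fold between groups, beside 92.5% of the 882 genes of that abundance. TRPV4 and NFATC2 were the remaining members. Among abundant members 13.6% had an unadjusted edgeR p under 0.05, the same share as among abundant genes in general (13.6%). Of the 55 detected members, 13 (23.6%) had 0 counts in 1 library and at least 10 in the other library of the same group, beside 22.3% of all detected genes. RYR1, NFATC1, PPP3CA and TRPC7 are among these members.

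**Figure D2:**
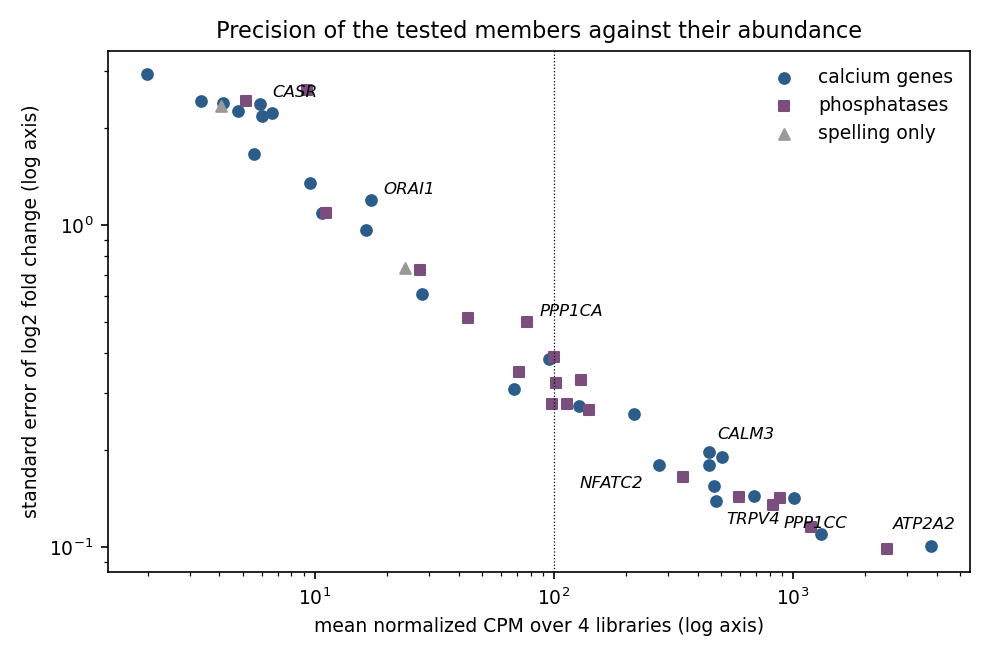
Standard error of the log2 fold change (y, log axis) against mean normalized CPM over 4 libraries (x, log axis) for the 48 tested members, 1 point per gene. The dotted line marks 100 normalized CPM. Abundant genes such as ATP2A2 and PPP2R1A had errors near 0.10, and sparse genes such as CASR had errors above 2.

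The 4 genes of calcium release among the members were scarce in these libraries. PLCZ1 and PLCD1 had 0 counts throughout, which allows a level of up to 0.625 to 0.932 normalized CPM, depending on the library. PLCD4, another phospholipase C, had 0, 6, 0 and 12 counts. RYR1, a ryanodine receptor that releases stored calcium, had 0, 20, 13 and 45 counts, and the libraries of the groups overlapped (log2 fold change 1.25, standard error 2.26, edgeR adjusted p = 0.980). The inositol trisphosphate receptors, the main release channels of eggs, have no gene among the members and were not analysed here. The level of release genes as a whole is therefore not known from these values.

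Among the 12 entry genes, 9 were tested, 4 with a lower and 5 with a higher estimate in SIRT6-inhibited oocytes (5 and 4 with library totals as the only scaling). TRPV4, a calcium-permeable channel that responds to osmotic and mechanical stimuli, had 373, 359, 585 and 593 normalized CPM. The control libraries lay close together, the SIRT6-inhibited libraries did too, and the gap between the groups was far wider than either spread. The difference was 1.61-fold, a log2 fold change of 0.69 with a 95% interval from 0.35 to 1.02 (edgeR unadjusted p = 0.00194, adjusted p = 0.460). By unadjusted p TRPV4 ranked 5 among the 2387 genes, and its unadjusted p stayed under 0.05 in every alternative fit run. DESeq2's adjusted p for TRPV4 was 0.0232 and edgeR's without a filter on low counts was 0.0248, and over all alternatives the range was 0.0232 to 0.950. TRPV4 lies on chromosome 14 at 41125819-41169582 in RefSeq's Sscrofa11.1 annotation.

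CASR, the calcium-sensing receptor of the cell surface, had 55, 42, 0 and 0 counts. In normalized CPM this is 11.9 and 11.8 against values under the floor, at least 15.2-fold lower. CASR passed the filter on low counts through the control group alone, so a tested CASR had to differ and its p-values are given as description. It had an unadjusted p of 0.0124 and an adjusted p of 0.469 in edgeR's test. The unadjusted p was 0.124 without control 1, 0.0936 without control 2 and 0.0651 with the replicate number as a block. DESeq2 gave CASR an adjusted p of 0.0391, in a range of 0.0391 to 0.950 over the alternatives.

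No difference was detectable for STIM1 or ORAI1, genes of store-operated entry. STIM1, the calcium sensor of the endoplasmic reticulum that opens ORAI channels, had 222, 176, 188 and 277 normalized CPM. ORAI1, the channel pore, had 18, 128, 66 and 39 counts. For both genes the groups overlapped, and the control libraries alone differed 9.27-fold for ORAI1. The log2 fold changes were 0.23 (standard error 0.26) for STIM1 and -0.48 (standard error 1.2) for ORAI1, with edgeR adjusted p-values of 0.956 and 0.989. TRPC4, a cation channel opened downstream of phospholipase C, had 431, 556, 572 and 456 normalized CPM. Its groups overlapped, and the log2 fold change of 0.06 was -0.000832 with library totals as the only scaling. CACNA2D1, an auxiliary subunit of voltage-gated calcium channels, had 116, 147, 107 and 140 normalized CPM. CACNB4, CACNG1, TRPC5 and TRPC7 did not exceed 32 counts in any library, and TRPC1 had 0 in all.

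**Figure D3:**
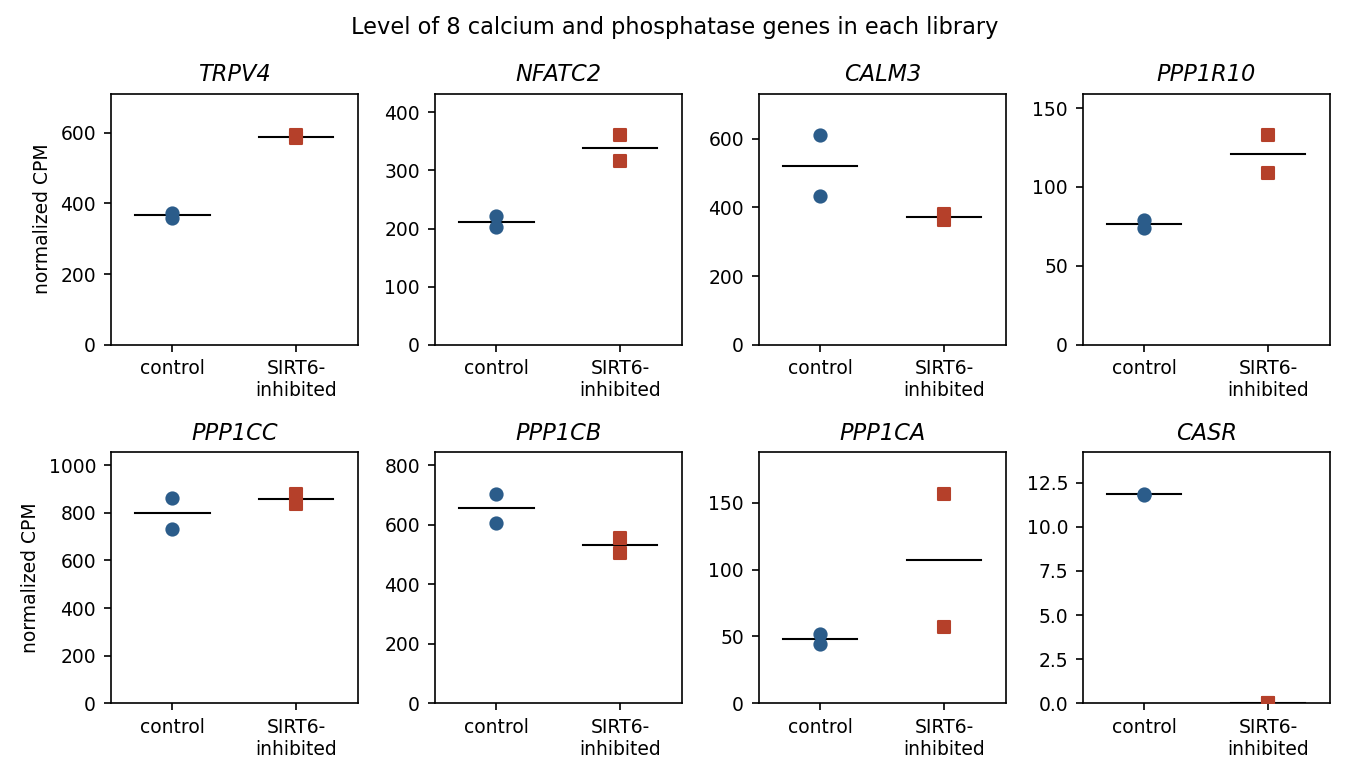
Normalized CPM (y axis, from 0, scaled per gene) of 8 genes in the control (blue circles) and SIRT6-inhibited (red squares) libraries, 2 per group, with lines at the group means. TRPV4, NFATC2, CALM3, PPP1R10, PPP1CB, PPP1CA and CASR show groups that do not overlap, while those of PPP1CC overlap.

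For the abundant pumps no difference was detectable. ATP2A2, which encodes SERCA2 and returns calcium to the endoplasmic reticulum, had 3812, 3442, 3862 and 3932 normalized CPM. The SIRT6-inhibited libraries lay just above both control libraries, and the interval of the difference spanned 0 (log2 fold change 0.10, 95% interval -0.14 to 0.34, edgeR adjusted p = 0.934). ATP2B1, a plasma membrane calcium pump, had 944, 1019, 924 and 1138 normalized CPM and overlapped between groups. ATP2A1, the muscle form of SERCA, had 5, 4, 27 and 56 counts. It passed the filter on low counts through the SIRT6-inhibited group alone, so a tested ATP2A1 had to be higher there. Its values are therefore given as description. Both SIRT6-inhibited libraries exceeded both controls, with the largest fitted increase among the tested members (8.88-fold, log2 fold change 3.15). The standard error was 1.66 and edgeR's adjusted p was 0.635. ATP2A1 made up 0.0283%, 0.0327%, 0.217% and 0.296% of the counts on the SERCA pair. Counts this small beside an abundant paralog are uncertain, since how reads shared by the pair were assigned is not given in the sources used here.

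Among the 5 sensors tested, CALM3 was the one with an unadjusted p under 0.05 (20%, beside 9.05% of all genes). CALM3, which encodes calmodulin, had 432, 610, 363 and 382 normalized CPM. Both SIRT6-inhibited libraries were below both controls, and control 2 stood well above control 1. The log2 fold change was -0.48 with a 95% interval from -0.96 to -0.01 (edgeR unadjusted p = 0.0464, adjusted p = 0.540). The value was -0.22 without control 2, with an unadjusted p of 0.342, and the unadjusted p was 0.0686 without SIRT6-inhibited 1 and 0.0510 with RLE scaling.

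Calmodulin genes share similar coding sequence, so the count of CALM3 is uncertain. Of the 10 S100 genes, small calcium-binding proteins, 6 had 0 counts in every library and 3 were tested. S100A11 had 92, 113, 90 and 159 counts, S100A14 81, 16, 12 and 61, and S100A16 60, 49, 98 and 40. For each of these genes the groups overlapped.

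Of the 6 kinase genes, 0 had an unadjusted p under 0.05 in edgeR's test, and 0 in DESeq2's, beside 9.05% and 9.93% of all genes. CAMK1, a calmodulin-dependent kinase, had 482, 404, 494 and 497 normalized CPM (log2 fold change 0.16, standard error 0.15, edgeR adjusted p = 0.932). CAMK2G encodes the CaMKII form that mouse eggs need for activation and had 63.0, 60.8, 78.6 and 70.6 normalized CPM. Both SIRT6-inhibited values were higher, but the interval of the difference spanned 0 (log2 fold change 0.27, 95% interval -0.47 to 1.01, edgeR adjusted p = 0.956). CAMK2D had 97.2, 103, 60.0 and 121 normalized CPM, and SIRT6-inhibited 1 stood apart from the other libraries. CAMK2D accordingly took 60.6%, 62.9%, 43.3% and 63.2% of the counts on the CaMKII pair. CAMK1D had 27, 17, 9 and 0 counts and PRKCZ, an atypical protein kinase C that does not bind calcium, had 43, 38, 42 and 47.

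In the calcineurin branch 3 genes were tested, and NFATC2 was the one with an unadjusted p under 0.05 (33.3%, beside 9.05% of all genes). NFATC2, a transcription factor that enters the nucleus once calcineurin has removed its phosphates, had 203, 221, 360 and 317 normalized CPM. Every SIRT6-inhibited library exceeded every control library, and the gap was wider than the spread within either group. The difference was 1.6-fold, a log2 fold change of 0.68 with a 95% interval from 0.25 to 1.11 (edgeR unadjusted p = 0.00782, adjusted p = 0.460). NFATC2 ranked 35 by unadjusted p among the 2387 genes, and that p was under 0.05 in every alternative fit run, at most 0.0472. RCAN1, an inhibitor of calcineurin whose gene is itself an NFAT target in other cells, had 1278, 1262, 1393 and 1297 normalized CPM. Its groups did not overlap, but the difference was small (log2 fold change 0.08, 95% interval -0.18 to 0.35, edgeR adjusted p = 0.969). PPP3CA, a catalytic subunit of calcineurin, had 0, 7, 12 and 0 counts and was not tested. NFATC1 had 24, 0, 62 and 10 counts, with 9.25-fold between the SIRT6-inhibited libraries (log2 fold change 2.02, standard error 2.22, edgeR adjusted p = 0.956). The other calcineurin subunits were not analysed here. NFATC2 lies on chromosome 17 at 52743570-52907373 and CALM3 on chromosome 6 at 52506979-52516704 in Sscrofa11.1.

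The catalytic genes of PP1 gave estimates of both signs. PPP1CC, the catalytic subunit PP1γ, had 863, 732, 838 and 880 normalized CPM. Control 1 lay among the SIRT6-inhibited libraries, and the difference between groups was smaller than the spread of the control libraries (log2 fold change 0.11, 95% interval -0.22 to 0.43, edgeR adjusted p = 0.965). Without control 2 the log2 fold change of PPP1CC was -0.012. The gene lies on chromosome 14 at 32071472-32091267 in Sscrofa11.1. PPP1CB, the catalytic subunit PP1β, had 704, 607, 506 and 557 normalized CPM. Both SIRT6-inhibited values were below both control values (log2 fold change -0.30, standard error 0.14, edgeR unadjusted p = 0.0755, adjusted p = 0.583), and with library totals as the only scaling the unadjusted p was 0.0257.

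PPP1CA, the catalytic subunit PP1α, had 44.0, 51.8, 57.2 and 157 normalized CPM. The high mean of the SIRT6-inhibited group came from 1 library, while SIRT6-inhibited 1 lay just above the controls. The log2 fold change was 1.16 (standard error 0.50, edgeR unadjusted p = 0.0548, adjusted p = 0.551). The unadjusted p was 0.00322 without a filter, 0.0212 with at least 10 counts in every library, 0.0260 with the replicate block and 0.0418 in DESeq2's test. The log2 fold change of PPP1CA was 1.71 without SIRT6-inhibited 1 and 0.25 without SIRT6-inhibited 2. Over all alternatives the adjusted p of PPP1CA ranged from 0.00407 to 0.953.

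The summed level of these subunits was alike in both groups. The catalytic genes of PP1 together had 1612, 1390, 1402 and 1594 normalized CPM, and the ratio of the group means was 0.998. Within that sum PPP1CB took 43.7% (95% Wilson interval 42.6 to 44.8) and 43.6% (42.3 to 45.0) in the control libraries, and 36.1% (34.7 to 37.5) and 35.0% (33.9 to 36.0) in the SIRT6-inhibited libraries. For PPP1CB the control libraries agreed within counting error and so did the SIRT6-inhibited libraries, with a gap between the groups. PPP1CC took 53.6%, 52.6%, 59.8% and 55.2%, and PPP1CA took 2.73%, 3.73%, 4.08% and 9.84%. For these shares both SIRT6-inhibited libraries were above both controls, but the intervals of the SIRT6-inhibited libraries did not overlap each other, nor did those of the control libraries for PPP1CA. The shares were not tested for a difference between groups. The paralogs are similar in sequence, and how reads shared between them were counted is not given in the sources used here.

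**Figure D4:**
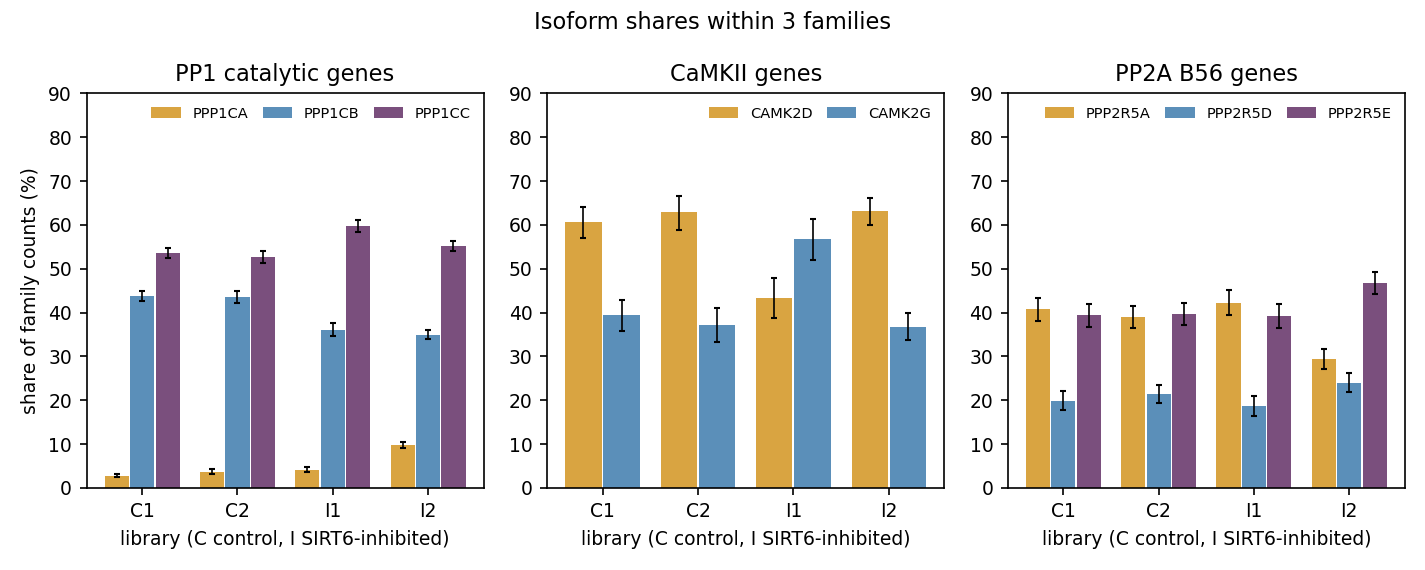
Share (%, y axis) of each gene in the summed counts of its family in each library (x axis) for the PP1 catalytic genes, the CaMKII pair and the PP2A B56 genes, with 95% Wilson intervals for counting error only. The PPP1CB share was 43.7% and 43.6% in control and 36.1% and 35.0% in SIRT6-inhibited libraries, and SIRT6-inhibited 1 stood apart for CAMK2D and SIRT6-inhibited 2 for PPP2R5A.

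The regulatory subunits of PP1 numbered 8, of which 6 were tested. Their summed level was 569 and 560 normalized CPM in control and 645 and 645 in SIRT6-inhibited libraries, and 6 of 6 estimates were above 0, or 5 of 6 with library totals as the only scaling, where PPP1R18 turned. PPP1R10, a nuclear targeting subunit named after its values were seen, had 79.0, 73.8, 109 and 133 normalized CPM. Both SIRT6-inhibited libraries exceeded both controls (log2 fold change 0.66, 95% interval -0.00220 to 1.33, edgeR unadjusted p = 0.0506, adjusted p = 0.546). With RLE scaling its unadjusted p was 0.0464. PPP1R14B, an inhibitor subunit, had 337, 340, 330 and 381 normalized CPM and overlapped between groups. PPP1R11 and PPP1R18 went from 0 to at least 50 counts between libraries of the same group.

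Among the 7 PP2A genes, all tested, 4 estimates were lower and 3 higher, or 5 and 2 with library totals as the only scaling, where PPP2R5E turned. PPP2R1A, the scaffold on which the enzyme assembles, had 2358, 2290, 2673 and 2587 normalized CPM. Both SIRT6-inhibited libraries were above both controls (log2 fold change 0.18, 95% interval -0.06 to 0.41, edgeR adjusted p = 0.668), and its unadjusted p was 0.116 in edgeR's test and 0.0444 in DESeq2's. PPP2CA, the catalytic subunit, had 1011, 822, 868 and 841 normalized CPM and overlapped between groups (log2 fold change -0.10, standard error 0.14, edgeR adjusted p = 0.977). PPP2R2A and PPP2R2B encode B55 subunits, which direct PP2A to the substrates of CDK1. Their summed level was 130, 96.3, 96.3 and 132 normalized CPM, with no gap between the groups. The B56 genes PPP2R5A, PPP2R5D and PPP2R5E, whose products work with shugoshin at centromeres, summed to 286, 410, 361 and 313. PPP2R5A took 40.8%, 38.9%, 42.2% and 29.3% of the B56 counts, so SIRT6-inhibited 2 stood apart here.

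PPP6C, the catalytic subunit of PP6, had 1187, 1082, 1205 and 1263 normalized CPM. The groups did not overlap, but the interval of the difference spanned 0 (log2 fold change 0.12, 95% interval -0.16 to 0.40, edgeR adjusted p = 0.932). PPP6R2, its regulatory subunit, and PPP4R3B, a subunit of PP4, overlapped between groups. Over the 19 tested phosphatase genes of PP1, PP2A, PP4 and PP6, 14 estimates were higher and 5 lower (12 and 7 with library totals only). Of these genes 0 had an unadjusted p under 0.05 in edgeR's test, against 2 (PPP1CA and PPP2R1A) in DESeq2's (10.5%, beside 9.93% of all genes there). The 27 tested genes of the calcium side, calcineurin included, had 19 higher and 8 lower estimates (18 and 9 with library totals only). Of these 27 genes, 4 were under that threshold in edgeR's test (14.8%, beside 9.05% of all genes). CASR is among the 4 and passed the filter on low counts through the control group alone, so its place in that share is description only. The same holds for ATP2A1 among the higher estimates, tested through the SIRT6-inhibited group alone. The difference between these sides was not tested.

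Further calcium genes outside the symbol families came from a list of 80, of which 28 were listed and 22 tested, 11 with a lower and 11 with a higher estimate (14 and 8 with library totals only). At an unadjusted edgeR p under 0.05, 2 were lower and 2 higher (18.2% of those tested, beside 9.05% of all genes), and 0 passed adjustment. The lower genes were CANX, a calcium-binding chaperone of the endoplasmic reticulum (log2 fold change -0.70, standard error 0.25, edgeR adjusted p = 0.505), and TMBIM6, which limits the calcium load of that store. TMBIM6 had 57.9, 120, 35.1 and 19.6 normalized CPM (log2 fold change -1.71, standard error 0.52, edgeR adjusted p = 0.469). The higher genes were LETM1, a cation exchanger of the inner mitochondrial membrane (log2 fold change 0.48, standard error 0.15, edgeR adjusted p = 0.485), and INPP1, an inositol phosphate phosphatase (log2 fold change 0.34, standard error 0.10, edgeR adjusted p = 0.460). The median log2 fold change of this list was -0.07.

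Of 54 regulators and partners of the phosphatases, 10 were listed and tested, with 5 lower and 5 higher estimates and a median log2 fold change of -0.09. At an unadjusted edgeR p under 0.05 there was 1 lower gene, SET, and 1 higher gene, WEE2 (20% of those tested, beside 9.05% of all genes). SET, an inhibitor of PP2A, had 1743, 2151, 1332 and 1423 normalized CPM, so both SIRT6-inhibited libraries were below both controls (log2 fold change -0.50, standard error 0.14, edgeR adjusted p = 0.460). WEE2, an oocyte kinase that inhibits CDK1 and acts at exit from M II, had 41659, 38139, 45706 and 48200 normalized CPM. Both SIRT6-inhibited values were above both control values (log2 fold change 0.23, standard error 0.08, edgeR adjusted p = 0.487). ENSA and ARPP19, relatives that block PP2A with B55 when phosphorylated, had 86, 117, 36 and 0 counts and 85, 73, 72 and 129 counts. In normalized CPM both SIRT6-inhibited libraries were below both controls for ENSA and above them for ARPP19, with edgeR unadjusted p-values of 0.253 and 0.639.

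Cell markers were read in the same libraries. Of 16 oocyte markers 12 were listed, and all 12 were tested, with a summed level of 50261, 54268, 50129 and 50041 normalized CPM and H1FOO as the most abundant. Among these 12, 7 had a lower and 5 a higher estimate (6 and 6 with RLE scaling, 9 and 3 with library totals only). ZP2 and GDF9 (16.7%, beside 9.05% of all genes) were lower at an unadjusted edgeR p under 0.05 (log2 fold changes -0.37 and -1.65, edgeR adjusted p = 0.510 and 0.469). Of 20 cumulus or granulosa markers 16 were listed, with a summed level of 163, 196, 80.2 and 197 and VCAN as the most abundant. Among them TNFAIP6, AMH, FSHR, LHCGR, AMHR2 and KRT8 had 0 counts throughout, and 6 were tested, 5 with a lower and 1 with a higher estimate. Their groups were separate for 4 of 6 (66.7%, beside 40.1% of all genes): PTGS2, INHBA and INHBB were lower and CYP11A1 was higher in both SIRT6-inhibited libraries. PTGS2 had 22, 12, 0 and 0 counts and passed the filter on low counts through the control group alone. A tested PTGS2 therefore had to be separate and lower, and its place in that share is description only. CYP11A1 had 0, 9, 13 and 56 counts. Of 6 blood or immune markers 4 were listed, and only CD68 had any counts, 4 in control 2. Summed cumulus markers were lowest in SIRT6-inhibited 1, and their part in the differences above was not tested.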

How the data were processed

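Total RNA of porcine M II oocytes was extracted and, by the study's methods, made into mRNA libraries. There were 4 libraries, 2 per group, grouped by the sample labels. The authors deposited counts of reads per gene symbol as whole numbers without normalization. The submitters' processing notes name TopHat2 2.0.13, Cufflinks 2.2.1, Cuffnorm, Cuffdiff and the builds susScr11 and mm10, with no role. The counting tool and the strand setting are not given in the sources used here, so reads of antisense or overlapping genes cannot be told apart. All 64 members matched the porcine RefSeq annotation (Sscrofa11.1, the assembly that susScr11 names), from which the coordinates come. The 4381 listed symbols are part of the gene catalogue, so totals are not the full depth.

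Counts were analysed with R 4.3.3, edgeR 4.0.16 and DESeq2 1.42.0. Genes were kept by edgeR's filterByExpr (minimum count 10, minimum total 15), which left 2387, and scaled by TMM. The main test was edgeR's quasi-likelihood test, two-sided, and p-values were adjusted over all 2387 genes by Benjamini and Hochberg's method. Standard errors were obtained as the absolute log2 fold change over the root of the F statistic, and 95% intervals use the t distribution with edgeR's total degrees of freedom. The fit was also run on counts simulated with its own estimated dispersions, which cannot show that its p-values hold for these libraries. The common biological coefficient of variation was 0.651. Replicate libraries differed beyond sampling noise and were kept as separate samples.

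Named members were PPP1CC, NFATC2, TRPV4 and CALM3, every member with an unadjusted p under 0.05, the 3 most abundant tested members of each class, the 5 highest and 5 lowest log2 fold changes, and textbook genes of egg activation. The results of 2 members that meet this rule are not reported here. Others are given by counts or overlap, and PPP1R10 and the genes of the other lists were named after their values were seen. Members and lists were chosen with earlier results of these data known. Transcript lengths were not used here, so shares within families and the order of genes by abundance refer to reads and not to molecules. Alternatives were RLE scaling, library totals only, a block for the replicate number, no filter, a minimum of 10 counts in each library, the Wald test of DESeq2 and leaving out each library in turn.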

Additional observations from a re-analysis of the deposited data

How the results depend on the processing

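TRPV4 and NFATC2 kept their direction and an unadjusted p under 0.05 in every alternative. The lowest and highest values with each library left out in turn were 111 and 302 for genes with an unadjusted p under 0.05, 0 and 77 for those with an adjusted one, 2 and 5 for members with an unadjusted p under 0.05 and 0 and 1 for members with an adjusted one. On the log2 scale they were 0.05 and 0.26 for the median of the members, -0.012 and 0.22 for PPP1CC and -0.72 and -0.22 for CALM3. These fits assume that the lone library of a group varies like the other group. Genes with an adjusted p under 0.05 numbered 43 without a filter (1 member, TRPV4), 2 with at least 10 counts in every library and 37 with DESeq2 (2 members, CASR and TRPV4). Libraries with the same number share only that label, and their deviations from the group means had a correlation of -0.117 across genes. The replicate block gave 6 genes with an adjusted p under 0.05. With it 4 members (8.33%) had an unadjusted p under 0.05, beside 176 of all genes (7.37%). With the numbers crossed, a pairing added after seeing the data, 2 genes had an adjusted p under 0.05. In that fit 4 members (8.33%) had an unadjusted one, beside 241 of all genes (10.1%). CALM3 had a log2 fold change of -0.46 with RLE scaling (unadjusted p 0.0510). Some estimates reversed. With library totals only, TRPC4 was -0.000832 and PPP2R5E -0.000301, and with the block ORAI1 was 0.10 and PPP1R11 -0.64. Over the fits that leave out 1 library the ranges were -0.12 to 0.25 for TRPC4, -0.19 to 0.35 for PPP2R5E, -1.34 to 1.87 for ORAI1, -6.46 to 2.81 for PPP1R11 and -0.088 to 0.21 for ATP2B1. They were -0.067 to 0.62 for S100A11, -1.56 to 0.85 for S100A14, -0.74 to 0.27 for CAMK2D, -0.32 to 8.37 for NFATC1, -0.040 to 0.16 for PPP1R14B and -0.25 to 0.047 for PPP2CA. For PPP6R2 the range was -0.032 to 0.33, for PPP4R3B -0.51 to 0.83, for PRKCSH -0.82 to 0.45, for NFATC2IP -0.32 to 7.40 and for STIM1 -0.081 to 0.47. The cause of these reversals was not tested. Of 32 named members, 31 kept direction and side of the threshold with RLE scaling, 29 with library totals only, 31 without a filter, 28 with the block and 30 with DESeq2, as did 24 of the 25 left with at least 10 counts in every library. CASR has no value under that last filter. With 1 library left out the number was 23 without control 1, 27 without control 2, 25 without SIRT6-inhibited 1 and 26 without SIRT6-inhibited 2, and 8, 3, 5 and 6 reversed.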
